A study of Mus musculus with 21 samples.

Results

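The 31 genes described here mark the cells that build brain blood vessels: 20 are markers of endothelial cells, which line the vessels, and 11 are markers of mural cells, the pericytes and smooth muscle cells that wrap them. They were chosen as symbols known for these cells, with earlier results of these data known, and were matched to Ensembl mouse identifiers, where they are 31 of the 55401 genes of the count table. The study asked how human APOE alleles bear on disease in mice with mutant human tau, and 21 forebrain libraries were sequenced, 1 per mouse, from 6 groups of mice. The total count per mouse ran from 59265459 to 75932183, with a median of 63751715, and the lowest count of any of the 31 genes in any mouse was 81, so all 31 passed the filter on low counts in every comparison.

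E2H, E3H and E4H are the parental lines, with 3 mice each. Both copies of the mouse Apoe gene are replaced by human APOE2, APOE3 or APOE4 by gene targeting, the lines are kept on a C57BL6 background, and the mice were 9 to 10 months old. PS/E2H, PS/E3H and PS/E4H, with 4 mice each, are homozygous for the same human alleles and carry in addition 1 copy of the PS19 transgene, human tau with the P301S mutation, from a line kept on a B6/C3H background. These mice were killed when their hindlimbs were paralyzed. The transgene, the paralysis, the age at death and the strain background change together between a PS19 group and its parental line and cannot be told apart. The PS19 transgene is driven by a prion promoter that is active mainly in neurons, and its expression by cell type was not measured here. All mice were perfused through the heart with saline and heparin. The labels give no sex per mouse, although the methods of the study name some females in E4H, PS/E2H and PS/E4H, and the part of sex was not tested.

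As background, brain endothelial cells are sealed by tight junctions and carry transporters that bring in glucose, lipids and hormones and pump foreign compounds back into the blood, and together these make the blood-brain barrier. Pericytes share the basement membrane of capillaries and are needed for the barrier to form, while smooth muscle cells around arterioles control the flow of blood. Vascular endothelial growth factor, angiopoietins and Wnt ligands from neighbouring cells act on endothelial receptors to keep vessels alive and the barrier closed.

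The defining markers of both cell classes were present in every library of this whole-tissue RNA. Levels are compared between genes in the deposited FPKM (fragments scaled for transcript length and library size), as the mean over the 21 mice. The pericyte gene Vtn, which encodes the secreted protein vitronectin, had the highest level at 40.6 ± 6.05 FPKM (SD, n = 21). The glucose transporter gene Slc2a1 followed with a level of 26.7 ± 6.29 FPKM and Itm2a, a membrane protein gene of endothelial cells, with 25.9 ± 5.02 FPKM. Slc2a1 and Itm2a do not differ beyond their spread. Ly6c1 had a level of 19.3 FPKM, Rgs5 18.4, Ly6a 18.0 and the tight junction gene Cldn5 13.5 FPKM. At the low end the levels of Vwf, Kdr, Anpep and Abcc9 were 1.12, 1.09, 1.08 and 0.785 FPKM. Endothelial and mural genes were interleaved along the whole range. Reads of Ly6a and Ly6c1 may be shared with close relatives such as Ly6c2, those of Abcb1a with Abcb1b and those of Slco1a4 with other genes of its family, so the levels of these genes carry that uncertainty.

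**Figure D1:**
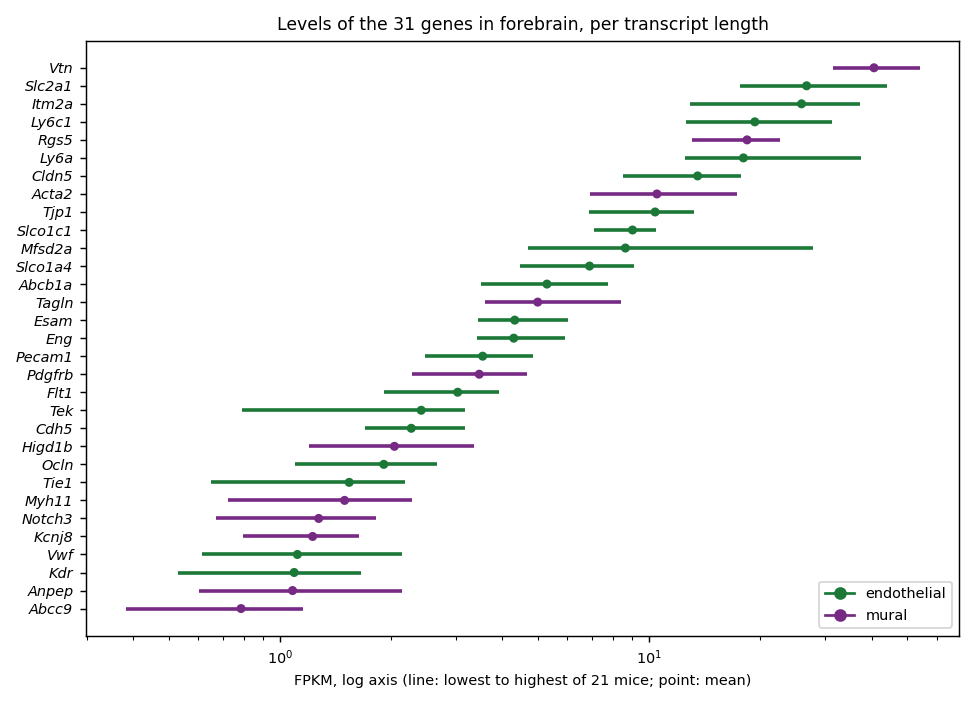
Level of each of the 31 genes in FPKM on a log axis, with green for endothelial and purple for mural genes; the point is the mean of 21 mice and the line runs from the lowest to the highest mouse. Vtn is highest at 40.6 and Abcc9 lowest at 0.785 FPKM, and Mfsd2a has a wide line, from 4.69 to 27.8 FPKM.

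Below, values per mouse are CPM, the deposited counts scaled by library size and TMM factors, and are listed in the order of the mouse numbers. Certain libraries stood apart on single vessel genes. E2H mouse 1 had the most Ly6a of all mice at 49.3 CPM, where the other E2H mice had 21.8 and 20.8 CPM. The same mouse had 33.8 CPM of Vwf against 12.5 and 17.7 CPM in its group. Its summed level of 5 blood genes was also the highest of all mice, 950.5 FPKM. PS/E2H mouse 4 had 69.6 CPM of Mfsd2a and 171 CPM of Slc2a1, the highest of any mouse for both, and 5.34 CPM of Kdr and 4.15 CPM of Tek, the lowest for both. PS/E3H mouse 4 had the most Vwf, 37.2 CPM, and the most Cdh5, 14.5 CPM, and its summed level of 5 neutrophil genes was 43.7 FPKM. E2H mouse 1 and PS/E2H mouse 4 were left out together in an added analysis, chosen after seeing the data for their values of vessel genes. A smaller adjusted p of a vessel gene without E2H mouse 1 and PS/E2H mouse 4 is therefore no added support. Over all genes another mouse of that group stood apart: E2H mouse 2 differed from mice 1 and 3 by a chi-square per gene of 87.4 and 77.1, where these differed from each other by 21.9. The largest such distance within any group was 89.7, between PS/E2H mice 2 and 3. E2H mouse 2 also had the fewest genes detected, 24438, and the highest mitochondrial share, 10.9%. Without it the calls over the 3 lines rose from 4849 to 5773 of all genes, and the same 10 vessel genes passed. The part of blood left in the vessels was not tested.

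The central question was which vessel genes differ between PS19 mice and their parental lines. Over the 3 lines together, with the APOE line as a term in the fit, 4 of the 5 transport genes were higher, the growth factor receptor gene Kdr was lower, and 5 of the 6 junction genes did not pass the test. Of the 20 endothelial genes, 6 were higher in PS19 mice, where 11.9% of all 21787 genes tested were higher, and 1 was lower, where 10.4% of all genes were lower. Of the 11 mural genes, 3 were higher and 0 lower; at an unadjusted p under 0.05, 5 mural genes differed, and 7286 of all genes did. DESeq2 and limma each called 3 mural genes, and with a block for the mouse number edgeR called 1, Vtn. Over all genes DESeq2 called 5432 of 20929, limma 4838 of 21787 and edgeR with the block 3813 of 22863. The tool was edgeR with its quasi-likelihood F test, p was adjusted over all genes after Benjamini and Hochberg, and the threshold was an adjusted p of 0.05. In either direction, 10 of the 31 genes passed, where 22.3% of all genes did. The median log2 fold change was 0.06 over the endothelial genes and 0.18 over the mural genes, beside -0.0075 over all genes. With E2H mouse 1 and PS/E2H mouse 4 left out, 7 endothelial genes passed, the same genes, and 2 mural genes, as Tagln dropped out. No vessel gene that passed also reached the 2-fold change that the study required for its own lists, so 0 of the 31 genes passed with that limit, while 568 of all genes did. In whole-tissue RNA, fewer cells of a type and less RNA per cell cannot be told apart. The cell type that made each transcript was not measured, so a change in a vessel gene is not shown to arise in vessel cells.

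**Figure D2:**
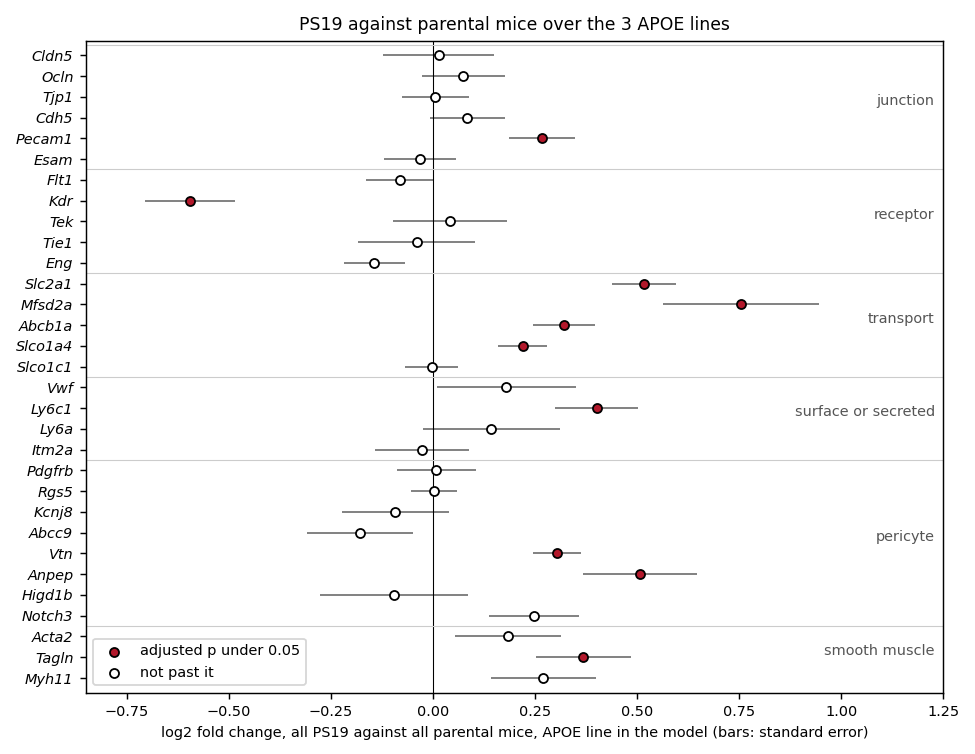
Log2 fold change of PS19 against parental mice over the 3 APOE lines for each of the 31 genes, grouped by role; bars are the standard error and filled points passed the test at an adjusted p under 0.05. Mfsd2a is farthest to the right at 0.75 and Kdr farthest to the left at -0.60, while Cldn5, Tjp1, Slco1c1, Pdgfrb and Rgs5 sit near 0.

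Among the transport genes, 4 of 5 were higher in PS19 mice. Slc2a1 encodes GLUT1, the transporter that carries glucose across the endothelium. It measured 99.1, 90.4 and 81.2 in E2H, 85.4, 90.9 and 78.0 in E3H and 75.1, 67.9 and 66.7 CPM in E4H among parental mice. In PS19 mice it measured 118, 119, 119.7 and 171 in PS/E2H, 107, 82.4, 129 and 119 in PS/E3H and 108, 117, 110.5 and 99.8 CPM in PS/E4H. All PS19 mice but PS/E3H mouse 2 lay above every parental mouse, 11 of 12, and PS/E2H mouse 4 stood far above the rest. The log2 fold change of Slc2a1 was 0.52 ± 0.0783 (SE, adjusted p = 4.6e-05), a 1.43-fold higher level, and 0.49 without E2H mouse 1 and PS/E2H mouse 4. Mfsd2a encodes the carrier that takes lysophospholipids with docosahexaenoic acid into the brain and holds back vesicle transport in endothelial cells. Its parental values were 22.1, 14.2 and 14.8 in E2H, 11.4, 16.3 and 13.1 in E3H and 15.0, 14.7 and 12.7 CPM in E4H. The PS19 values were 25.8, 25.8, 19.8 and 69.6 in PS/E2H, 23.4, 13.7, 24.9 and 19.2 in PS/E3H and 21.6, 16.3, 32.7 and 17.3 CPM in PS/E4H. All 12 PS19 mice were above the mean of their own parental line, yet only 6 lay above every parental mouse, because E2H mouse 1 was high. Mfsd2a had a log2 fold change of 0.75 ± 0.191 (SE, adjusted p = 0.00617), and 0.64 (adjusted p = 0.00111) without those 2 libraries.

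Abcb1a encodes P-glycoprotein, the pump that returns many drugs to the blood. Parental mice had Abcb1a at 24.0, 22.7 and 26.6 in E2H, 28.1, 28.0 and 32.1 in E3H and 29.0, 29.6 and 26.4 CPM in E4H. PS19 mice had 32.3, 25.9, 33.6 and 24.0 in PS/E2H, 29.4, 37.1, 44.1 and 44.4 in PS/E3H and 35.1, 39.5, 30.1 and 36.7 CPM in PS/E4H. The groups overlapped in the E2H and E3H lines and not in the E4H line, and 10 of 12 PS19 mice were above their own parental mean. Its log2 fold change was 0.32 ± 0.0763 (SE, adjusted p = 0.00382). Slco1a4 encodes an organic anion transporter of the endothelium. It measured 39.2, 34.0 and 43.5 in E2H, 49.2, 47.7 and 45.7 in E3H and 45.7, 45.0 and 42.3 CPM in E4H in parental mice. It measured 38.2, 46.5, 43.9 and 37.0 in PS/E2H, 46.7, 54.9, 57.3 and 63.3 in PS/E3H and 57.2, 60.1, 51.9 and 56.3 CPM in PS/E4H in PS19 mice. Every PS/E4H mouse was above every E4H mouse, whereas PS/E2H and E2H mice overlapped, and 9 of 12 PS19 mice were above their own parental mean. The log2 fold change of Slco1a4 was 0.22 ± 0.0600 (SE, adjusted p = 0.0103). Slco1c1, which carries thyroid hormone into the brain, did not pass, with a log2 fold change of -0.00 ± 0.0647 (SE) and 7 of 12 PS19 mice above their parental mean.

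Among the growth factor receptors, Kdr was the gene that fell. Kdr encodes VEGFR2, the main signaling receptor for vascular endothelial growth factor. Parental mice had Kdr at 14.4, 8.46 and 10.8 in E2H, 14.8, 15.4 and 13.4 in E3H and 14.3, 15.5 and 12.4 CPM in E4H. PS19 mice had 9.90, 8.46, 10.5 and 5.34 in PS/E2H, 7.82, 10.6, 7.66 and 9.42 in PS/E3H and 9.52, 8.72, 9.25 and 7.64 CPM in PS/E4H. All 12 PS19 mice were below the mean of their own parental line, and in the E3H and E4H lines the groups did not overlap; E2H mouse 2 was as low as the PS19 mice. The log2 fold change of Kdr was -0.60 ± 0.110 (SE, adjusted p = 0.000406), a fold of 0.661, and -0.52 (adjusted p = 0.000973) without E2H mouse 1 and PS/E2H mouse 4. The other 4 genes of this role did not pass. Flt1, the VEGF receptor that mostly holds the ligand back, had a log2 fold change of -0.08 ± 0.0827, or -0.03 without those 2 mice. For the angiopoietin receptor Tek it was 0.04 ± 0.139, or 0.13 without them, and for its partner Tie1 -0.04 ± 0.142. For Eng, a co-receptor for TGF-beta ligands, it was -0.14 ± 0.0749 (SE).

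The promoters of the 4 transport genes that were higher and of Kdr are printed next, as transport was the role with the most genes that passed and Kdr the gene that fell; those of Ly6c1, Vtn and Anpep, which passed too, are not shown. They are the 250 bases before the RefSeq start of each gene on GRCm38.p6, 5′ to 3′ on the strand of the gene; 22 of the 31 genes had such an entry. Capitals mark, on either strand, a hypoxia response core (ACGTG or GCGTG), a TCF/LEF core (CTTTGA or CTTTGT) or a GC box (GGGCGG), and no match overlaps another. The Slc2a1 promoter, chr4:119108495-119108744 on the plus strand, holds 2 hypoxia response cores and 2 GC boxes. That of Mfsd2a, chr4:122961189-122961438 on the minus strand, holds 4 hypoxia response cores and 1 TCF/LEF core. That of Abcb1a, chr5:8566841-8567090 on the plus strand, holds 3 TCF/LEF cores; it lies 92986 bases before the start of Abcb1a in the annotation of the counts, where for the other 4 genes the 2 starts are at most 34 bases apart. That of Slco1a4, chr6:141856221-141856470 on the minus strand, holds 0 matches. That of Kdr, chr5:75978456-75978705 on the minus strand, holds 2 hypoxia response cores and 2 GC boxes.
Slc2a1: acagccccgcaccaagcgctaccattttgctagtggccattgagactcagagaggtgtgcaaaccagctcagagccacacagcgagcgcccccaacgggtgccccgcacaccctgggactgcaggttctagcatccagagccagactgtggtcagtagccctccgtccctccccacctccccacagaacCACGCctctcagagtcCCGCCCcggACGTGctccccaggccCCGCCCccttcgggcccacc
Mfsd2a: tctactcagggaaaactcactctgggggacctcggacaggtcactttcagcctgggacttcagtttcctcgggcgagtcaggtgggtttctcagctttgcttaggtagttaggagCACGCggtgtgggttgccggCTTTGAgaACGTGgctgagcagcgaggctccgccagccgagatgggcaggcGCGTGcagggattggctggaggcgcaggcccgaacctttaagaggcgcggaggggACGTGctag
Abcb1a: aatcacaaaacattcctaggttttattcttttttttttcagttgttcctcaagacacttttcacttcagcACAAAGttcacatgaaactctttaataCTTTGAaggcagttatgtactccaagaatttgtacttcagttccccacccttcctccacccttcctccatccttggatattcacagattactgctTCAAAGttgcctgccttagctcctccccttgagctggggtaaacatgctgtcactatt
Slco1a4: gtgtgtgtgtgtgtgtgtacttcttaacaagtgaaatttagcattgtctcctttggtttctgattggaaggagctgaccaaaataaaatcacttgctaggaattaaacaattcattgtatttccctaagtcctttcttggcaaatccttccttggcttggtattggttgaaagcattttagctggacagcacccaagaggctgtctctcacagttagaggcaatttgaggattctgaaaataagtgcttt
Kdr: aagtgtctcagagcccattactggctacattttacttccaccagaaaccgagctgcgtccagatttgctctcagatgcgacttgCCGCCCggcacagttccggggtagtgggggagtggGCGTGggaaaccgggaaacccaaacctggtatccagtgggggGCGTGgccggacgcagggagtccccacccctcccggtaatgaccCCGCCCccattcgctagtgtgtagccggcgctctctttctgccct
Over all 32851 promoters of this length, 38.6% held a hypoxia response core, 27.6% a TCF/LEF core and 32.7% a GC box. Of the 22 vessel genes with a promoter, 9, 7 and 10 held them. A match is a run of letters only.

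Among the junction genes, 1 of 6 was higher, Pecam1, the adhesion molecule CD31 found on all endothelial cells. Parental mice had Pecam1 at 24.1, 18.3 and 20.9 in E2H, 23.7, 21.5 and 25.5 in E3H and 21.04, 17.1 and 20.7 CPM in E4H. PS19 mice had 29.0, 27.2, 32.5 and 26.8 in PS/E2H, 19.6, 24.1, 24.2 and 27.4 in PS/E3H and 21.9, 24.2, 30.1 and 23.3 CPM in PS/E4H. The groups did not overlap in the E2H and E4H lines and overlapped in the E3H line, and 11 of 12 PS19 mice were above their own parental mean. Pecam1 had a log2 fold change of 0.27 ± 0.0811 (SE, adjusted p = 0.0201). The genes of the tight junction itself did not pass. Cldn5, the claudin that seals brain endothelium, ranged from 15.6 to 26.6 CPM in parental and from 13.4 to 27.8 CPM in PS19 mice, with a log2 fold change of 0.01 ± 0.137. For Ocln, occludin, the log2 fold change was 0.07 ± 0.102, and for Tjp1, the scaffold ZO-1, 0.01 ± 0.0827. Cdh5, the cadherin of endothelial adherens junctions, had 0.08 ± 0.0923, and the adhesion molecule gene Esam -0.03 ± 0.0880 (SE). The signs of Cldn5, Tjp1 and Esam turned when single libraries were left out, so no direction is given for them.

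Of the 4 surface and secreted genes, Ly6c1 was higher. It encodes a small lipid-anchored surface protein of brain endothelium. Parental mice had Ly6c1 at 49.7, 30.97 and 29.9 in E2H, 26.5, 27.2 and 27.7 in E3H and 28.2, 26.4 and 22.9 CPM in E4H. PS19 mice had 36.8, 38.4, 40.7 and 58.5 in PS/E2H, 30.8, 28.6, 40.6 and 39.3 in PS/E3H and 33.5, 38.5, 44.8 and 40.3 CPM in PS/E4H. The groups did not overlap in the E3H and E4H lines; E2H mouse 1 was as high as the PS19 mice, and 11 of 12 PS19 mice were above their own parental mean. The log2 fold change of Ly6c1 was 0.40 ± 0.103 (SE, adjusted p = 0.00663), and 0.45 (adjusted p = 0.000174) without E2H mouse 1 and PS/E2H mouse 4. Ly6a encodes the related surface protein Sca-1. It measured 49.3, 21.8 and 20.8 in E2H, 20.7, 19.2 and 19.5 in E3H and 16.3, 17.5 and 16.9 CPM in E4H in parental mice. It measured 25.0, 28.2, 16.2 and 24.4 in PS/E2H, 19.4, 20.6, 15.8 and 26.2 in PS/E3H and 28.5, 24.9, 35.5 and 29.1 CPM in PS/E4H in PS19 mice. In the E4H line every PS19 mouse was above every parental mouse; in the other lines the groups overlapped, and E2H mouse 1 was the highest of all.

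Over the 3 lines Ly6a had a log2 fold change of 0.14 ± 0.168 (SE, adjusted p = 0.607) by the edgeR test with adjusted p and did not pass, with 6 of 12 PS19 mice above their parental mean. Without E2H mouse 1 alone it passed, at 0.34 (adjusted p = 0.0493), and without both that mouse and PS/E2H mouse 4 it did not, at 0.34 (adjusted p = 0.0556). Vwf encodes von Willebrand factor, the platelet adhesion protein of larger vessels. Its parental values were 33.8, 12.5 and 17.7 in E2H, 23.2, 21.9 and 18.6 in E3H and 13.5, 12.5 and 10.7 CPM in E4H. Its PS19 values were 20.3, 20.05, 18.9 and 15.6 in PS/E2H, 19.4, 19.8, 22.1 and 37.2 in PS/E3H and 13.3, 17.4, 27.6 and 12.8 CPM in PS/E4H. E2H mouse 1 and PS/E3H mouse 4 were the highest, the E4H mice were among the lowest, and the groups overlapped in every line. Vwf had a log2 fold change of 0.18 ± 0.171, or 0.37 (adjusted p = 0.0689) without E2H mouse 1 and PS/E2H mouse 4, and Itm2a of -0.03 ± 0.115 (SE), and neither passed. Leaving out each mouse in turn, the log2 fold change of Vwf ran from 0.08 to 0.35.

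Of the 8 pericyte genes, Vtn and Anpep were higher in PS19 mice. Vtn measured 69.7, 79.6 and 79.1 in E2H, 89.6, 87.7 and 75.8 in E3H and 75.8, 76.5 and 76.1 CPM in E4H in parental mice. In PS19 mice Vtn measured 99.5, 97.8, 98.6 and 79.1 in PS/E2H, 80.4, 102, 93.0 and 107 in PS/E3H and 98.6, 97.6, 99.1 and 115 CPM in PS/E4H. All PS19 mice but PS/E2H mouse 4 and PS/E3H mouse 1 lay above every parental mouse, 10 of 12. The log2 fold change of Vtn was 0.30 ± 0.0585 (SE, adjusted p = 0.000619), and 0.31 without E2H mouse 1 and PS/E2H mouse 4. Anpep encodes aminopeptidase N, CD13, on the pericyte surface. Parental mice had Anpep at 2.74, 3.39 and 2.76 in E2H, 5.07, 4.32 and 4.95 in E3H and 5.20, 4.19 and 2.80 CPM in E4H. PS19 mice had 3.92, 5.01, 5.63 and 4.68 in PS/E2H, 3.86, 6.35, 6.79 and 9.59 in PS/E3H and 5.48, 5.35, 3.80 and 6.13 CPM in PS/E4H. The groups did not overlap in the E2H line, overlapped in the E3H and E4H lines, and 10 of 12 PS19 mice were above their own parental mean. Anpep had a log2 fold change of 0.51 ± 0.139 (SE, adjusted p = 0.0108), and it did not pass with a block for the mouse number, at 0.41 (adjusted p = 0.0616).

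The other 6 pericyte genes did not pass. Pdgfrb, the receptor that recruits pericytes to vessels, had a log2 fold change of 0.01 ± 0.0962. Rgs5, a regulator of G protein signaling, had 0.00 ± 0.0561. Kcnj8 and Abcc9, the subunits of the potassium channel of pericytes that is closed by ATP, had -0.09 ± 0.130 and -0.18 ± 0.129, which shrank to -0.00 and -0.07 without E2H mouse 1 and PS/E2H mouse 4. Higd1b, a pericyte marker, had -0.10 ± 0.181, and Notch3, a receptor needed to maintain mural cells, 0.25 ± 0.110 (SE). The signs of Pdgfrb, Rgs5 and Higd1b turned under some of the alternatives, so no direction is given for them.

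Of the 3 smooth muscle genes, Tagln, which encodes the actin-binding protein SM22, was higher. Parental mice had Tagln at 7.79, 9.58 and 8.25 in E2H, 12.1, 11.1 and 9.43 in E3H and 8.44, 8.31 and 8.26 CPM in E4H. PS19 mice had 10.4, 18.6, 12.8 and 11.8 in PS/E2H, 9.86, 11.5, 8.40 and 12.9 in PS/E3H and 10.7, 12.8, 9.80 and 13.6 CPM in PS/E4H. The groups did not overlap in the E2H and E4H lines and overlapped in the E3H line, PS/E2H mouse 2 was the highest, and 10 of 12 PS19 mice were above their own parental mean. Tagln had a log2 fold change of 0.37 ± 0.116 (SE, adjusted p = 0.0246). It no longer passed without E2H mouse 1, at 0.33 (adjusted p = 0.0562), or without E2H mouse 3, at 0.34 (adjusted p = 0.0544). Nor did it pass without both E2H mouse 1 and PS/E2H mouse 4, at 0.34 (adjusted p = 0.0556), or with the block for the mouse number, at 0.32 (adjusted p = 0.0636). Acta2, the actin of smooth muscle, had a log2 fold change of 0.18 ± 0.130, and Myh11, its myosin heavy chain, 0.27 ± 0.129 (SE), and neither passed.

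**Figure D3:**
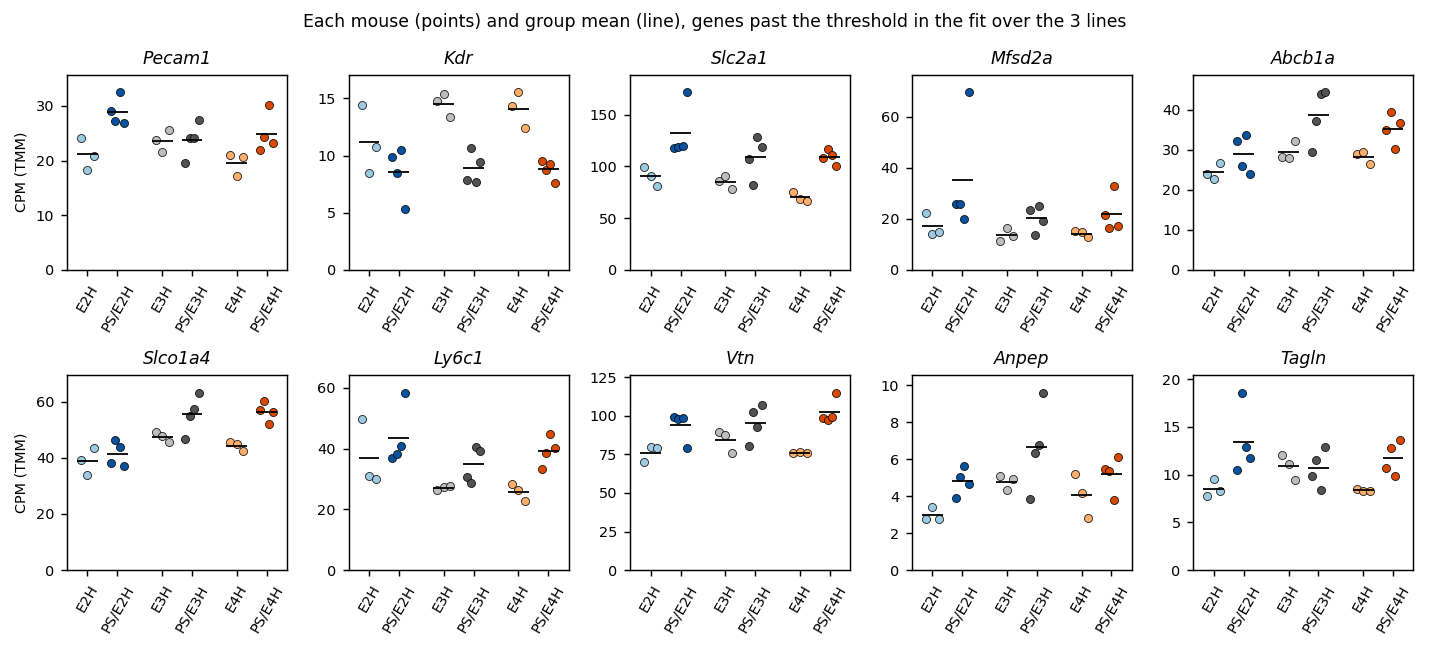
CPM of the genes that passed the test over the 3 lines, 1 point per mouse and a line at each group mean, with parental groups in light and PS19 groups in dark colors. Kdr is lower in PS19 mice, from 5.34 to 10.6 CPM, and Slc2a1 is higher, from 82.4 to 171 CPM, with PS/E2H mouse 4 at the top of Slc2a1 and Mfsd2a.

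Within each APOE line the PS19 mice were compared with their own parental mice, as the study did. In the E4H line, 5 of 20 endothelial genes passed, where 15.6% of all genes did: 4 were higher, where 8.62% of all genes were, and Kdr was lower, where 6.98% were. The 4 were Slc2a1, at a log2 fold change of 0.64 ± 0.0707 (SE, adjusted p = 0.000534), Ly6a, Ly6c1 and Slco1a4. For Ly6a it was 0.80 ± 0.117 (SE, adjusted p = 0.00218). For Ly6c1 it was 0.60 ± 0.109 (SE, adjusted p = 0.00634). For Slco1a4 it was 0.35 ± 0.0675 (SE, adjusted p = 0.00850). Kdr fell by 0.68 (log2) ± 0.121 (SE, adjusted p = 0.00580). With the block for the mouse number Ly6c1 just missed the threshold (adjusted p = 0.0501). The calls over all genes, 3252 with all mice, dropped to 1433 with this block. They were 1529 without E4H mouse 1 and 1189 without E4H mouse 2, and rose to 3402 without PS/E4H mouse 3. Leaving out each mouse in turn, from 5 to 6 endothelial genes passed. All 4 PS/E4H mice lay beyond all 3 E4H mice for each of these 5 genes; in this line the groups did not overlap for 10 of the 31 genes and for 28.8% of all genes tested. DESeq2 called these 5 and Abcb1a, Mfsd2a and Pecam1, 8 endothelial genes, where it called 4557 of all 18407 genes that it tested. The median log2 fold change was 0.08 over the endothelial genes, beside -0.0023 over all genes.

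Of the 11 mural genes, 2 were higher in the E4H line by the same test, with a median log2 fold change of 0.22. Vtn had a log2 fold change of 0.43 ± 0.0687 (SE, adjusted p = 0.00346) and Tagln of 0.49 ± 0.133 (SE, adjusted p = 0.0333), and for both the groups did not overlap. Tagln did not keep its call: without E4H mouse 1, 2 or 3 its adjusted p was 0.101, 0.117 or 0.0866, at log2 fold changes of 0.50, 0.50 and 0.49, and without PS/E4H mouse 2 or 4 it was 0.0789 or 0.0713, at 0.45 and 0.42. It also missed the threshold with no filter on low counts (adjusted p = 0.0697) and by limma on the FPKM (adjusted p = 0.0522), and with the block for the mouse number (adjusted p = 0.144).

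In the E3H line, Kdr alone of the 20 endothelial genes passed by the edgeR test with adjusted p, where 5.37% of all genes did, 3.35% higher and 2.02% lower. It fell by 0.72 (log2) ± 0.133 (SE, adjusted p = 0.0170), and the groups did not overlap, as for 3 of the 31 genes and 19.3% of all genes in this line. Without E3H mouse 1, 2 or 3 its log2 fold change was -0.70, -0.68 or -0.78 and its adjusted p 0.0913, 0.0780 or 0.0583, while the calls over all genes dropped from 1141 to 113, 259 and 208. Without PS/E3H mouse 1, 3 endothelial genes passed, Abcb1a, Kdr and Slco1a4, and the mural gene Anpep with them, where 2584 of all 20766 genes did; without PS/E3H mouse 2 they were Kdr, Mfsd2a and Slc2a1, with 714 of all 20885 genes. At an unadjusted p under 0.05 there were 8 endothelial genes, and 4541 of all 21251 genes tested. DESeq2 called 6 endothelial genes, Abcb1a, Eng, Kdr, Ly6c1, Mfsd2a and Slc2a1, and 2468 of all 17940 genes that it tested. Of the 11 mural genes, edgeR called 0, with 1 at an unadjusted p under 0.05, DESeq2 called 0 and limma 0, where limma called 651 of all 21251 genes. The medians were 0.01 over the endothelial and -0.15 over the mural genes, beside -0.0043 over all genes.

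In the E2H line, edgeR called 0 of 20 endothelial and 0 of 11 mural genes, where 0.752% of all genes passed, 0.669% higher and 0.0825% lower. These 155 calls over all genes dropped to 31, 36 and 45 without E2H mouse 1, E2H mouse 3 and PS/E2H mouse 1, and to 25 without both E2H mouse 1 and PS/E2H mouse 4. At an unadjusted p under 0.05 there were 3 endothelial and 7 mural genes, and 2203 of all 20617 genes tested. DESeq2 called 2 endothelial genes, Pecam1 and Slc2a1, 3 mural genes, Anpep, Myh11 and Tagln, and 690 of all 18598 genes that it tested. Limma on the FPKM called 0 endothelial and 0 mural genes, and 94 of all 20617 genes. The largest log2 fold change belonged to Mfsd2a, 1.04 ± 0.399 (SE, adjusted p = 0.365), with E2H and PS/E2H mice overlapping, and it was 0.72 (adjusted p = 0.227) without E2H mouse 1 and PS/E2H mouse 4. Kdr had -0.40 in this line with all mice and -0.00 (adjusted p = 0.999) without these 2. The smooth muscle gene Myh11 followed among the mural genes with 0.76 ± 0.227 (adjusted p = 0.218); its parental values were 8.09, 6.49 and 11.4 CPM and its PS/E2H values 14.4, 19.4, 13.3 and 11.7 CPM, which did not overlap. Pdgfrb, Notch3, Anpep and Tagln did not overlap either in this line, all 4 with the PS19 mice above, nor did Pecam1 and Slc2a1. These are 7 of 31 genes, where 11.6% of all genes tested in this line did not overlap. The median log2 fold change was 0.11 over the endothelial and 0.41 over the mural genes, beside -0.0152 over all genes.

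**Figure D4:**
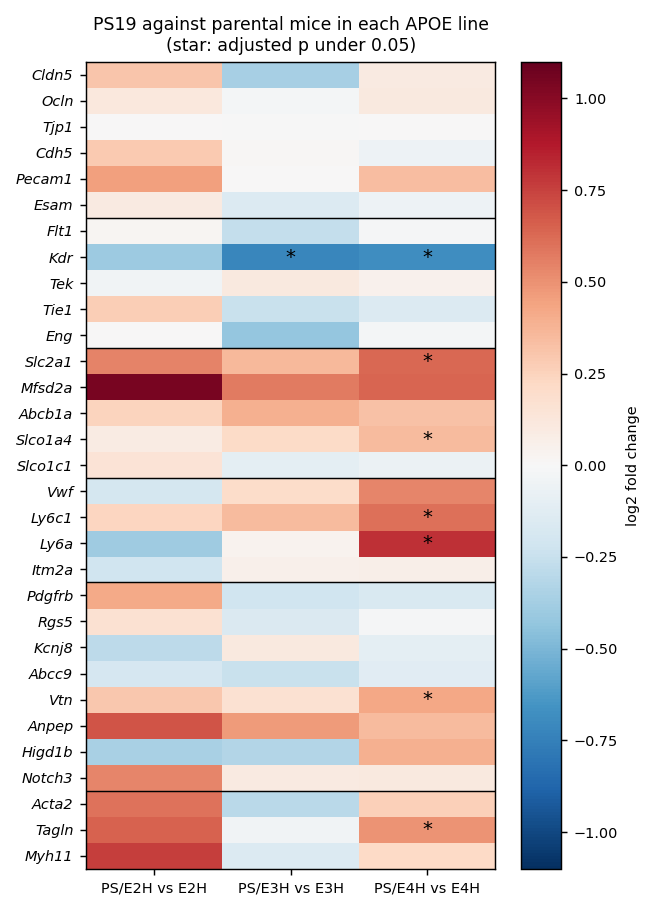
Log2 fold change of PS19 against parental mice in each APOE line for the 31 genes, drawn as colors from blue (lower) to red (higher), with a star where the gene passed the test in that line. Kdr is blue in each line, at -0.40, -0.72 and -0.68, of which the E2H value is -0.00 without E2H mouse 1 and PS/E2H mouse 4, and the E4H line alone has stars on genes that rose.

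Whether the difference between PS19 and parental mice itself differs between the lines was tested as an interaction. By the edgeR test with adjusted p, 0 of the 31 genes passed, and 0% of all 22863 genes did. DESeq2 also called 0 of the 31, and 59 of all 22850 genes that it tested. Limma called 0 of the 31 and 0 of all 22863 genes. At an unadjusted p under 0.05 there were 6 of the 31 genes and 1735 of all genes. From the smallest p up they were Ly6a, Pdgfrb, Myh11, Acta2, Eng and Tagln, with adjusted p from 0.490 to 0.607. For Pdgfrb the log2 fold change was 0.41 in the E2H line, -0.22 in the E3H line and -0.17 in the E4H line. For Acta2 the 3 values were 0.60, -0.30 and 0.26, and for Myh11 0.76, -0.15 and 0.22. A gene that passed in a single line is therefore not shown to differ between lines.

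The APOE alleles were compared with each other among parental mice and among PS19 mice, which asks whether the level of vessel genes differs between the lines. These pairs share groups. The allele is not their only difference: the study reports that PS/E3H mice reached paralysis later than PS/E2H and PS/E4H mice. The females that its methods name are in E4H, PS/E2H and PS/E4H. The part of age at death and of sex was not tested. In E4H against E3H mice, edgeR called Vwf alone of the 31 genes, where 0.162% of all genes passed: it fell by 0.80 (log2) ± 0.115 (SE, adjusted p = 0.0259), and all 3 E4H mice, from 10.7 to 13.5 CPM, were below all 3 E3H mice, from 18.6 to 23.2 CPM. Without E3H mouse 1 or 2 its adjusted p was 0.164 or 0.174, and without E4H mouse 1, 2 or 3 it was 0.0605, 0.0964 or 0.0973, with log2 fold changes from -0.87 to -0.71; it was also not called with no filter (adjusted p = 0.0816) or by limma on the FPKM (adjusted p = 0.207). It kept its call with RLE size factors and with the block for the mouse number. DESeq2 called 5 of the 31, Acta2, Flt1, Myh11, Slc2a1 and Vwf, and 160 of all 17703 genes that it tested. In this pair 13 of the 31 genes had an unadjusted p under 0.05, as did 1397 of all 20958 genes. The log2 fold change was above 0 in 2 of 31, with a median of -0.20, beside -0.0025 over all genes. The lean was not particular to E4H: in E2H against E3H mice it was above 0 in 7 of 31. The median there was -0.27, beside -0.0080 over all genes.

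In E2H against E3H mice, edgeR called 0 of 31 genes, where 0.178% of all genes passed, with 16 of the 31 at an unadjusted p under 0.05, as were 2933 of all 20797 genes. DESeq2 called 8 there, Acta2, Anpep, Myh11, Notch3, Ocln, Pdgfrb, Rgs5 and Tie1, and 590 of all 16354 genes that it tested. All 8 had log2 fold changes below 0, among them -0.70 for Pdgfrb, -0.72 for Tie1 and -0.49 for Rgs5. With RLE size factors in place of TMM, edgeR called Pdgfrb. Without E2H mouse 2, edgeR called Rgs5. In E4H against E2H mice edgeR called 0, where 0.216% of all genes passed, with 12 at an unadjusted p under 0.05, as were 2570 of all 20804 genes. DESeq2 called Pdgfrb, Rgs5 and Slc2a1, and 322 of all 18783 genes. Limma called 0 of the 31 in these pairs, and 46 of all genes in E2H against E3H and 47 in E4H against E2H.

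Among PS19 mice, edgeR called 0 of 31 genes in PS/E2H against PS/E3H, where 0.113% of all genes passed and 5 of the 31, and 2383 of all 20324 genes, had an unadjusted p under 0.05. It called 0 in PS/E4H against PS/E3H, where 0.0197% passed and 1 of the 31, and 1324 of all genes, had an unadjusted p under 0.05. In PS/E4H against PS/E2H it called 0, where 0.119% passed and 4 of the 31, and 2491 of all genes, had an unadjusted p under 0.05. Limma called 0 of the 31 in all 3 pairs, and in the same order 28, 5 and 17 of all genes. DESeq2 called 0 of the 31 in PS/E4H against PS/E3H, and 35 of all 20313 genes. It called Slco1a4 in the pairs with PS/E2H, where it called 152 of all 19116 and 253 of all 18616 genes. Slco1a4 had log2 fold changes of -0.43 and 0.45 in those pairs, with lower values in PS/E2H mice.

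The test over the 3 APOE lines, with PS19 as a term, uses all 21 mice. It called Slco1a4 (adjusted p = 0.0140) and Rgs5 (adjusted p = 0.0488) by edgeR, 2 of 31 genes, where 1.49% of all genes passed. DESeq2 called 5, Abcb1a, Anpep, Rgs5, Slc2a1 and Slco1a4, and 1542 of all 16711 genes that it tested. Rgs5 measured 75.0, 70.1 and 80.4 in E2H, 110.0, 105 and 101 in E3H and 92.0, 93.6 and 90.4 CPM in E4H in parental mice. Rgs5 measured 82.2, 78.7, 94.9 and 82.3 in PS/E2H, 81.8, 89.8, 107 and 102 in PS/E3H and 86.3, 96.2, 83.3 and 99.0 CPM in PS/E4H in PS19 mice. The E2H mice were below all other parental mice, and among PS19 mice the lines overlapped. Slco1a4 ran from 34.0 to 43.5 CPM in E2H, which overlaps E4H, and from 37.0 to 46.5 CPM in PS/E2H. Rgs5 lost its call in 18 of the 21 fits that left out 1 mouse, with an adjusted p of up to 0.118, and Slco1a4 kept it in all 21. Rgs5 also lost it with no filter, by limma and with the block for the mouse number. Without both E2H mouse 1 and PS/E2H mouse 4 the adjusted p was 0.0672 for Slco1a4 and 0.123 for Rgs5, so neither passed. Without PS/E2H mouse 3, 4 genes passed, Abcb1a, Rgs5, Slco1a4 and Tjp1, and with them 1830 of all 21699 genes. The calls over all genes, 324 with all mice, ran down to 133 when other single mice were left out.

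Lists of related genes place these markers among their partners, all in the comparison over the 3 lines by the edgeR test with adjusted p, where 22.3% of all genes passed, 11.9% higher and 10.4% lower. Of 25 vascular growth factors and partners tested, 7 were higher and 4 lower, with a median log2 fold change of 0.03. Vegfa, the ligand of Kdr, was among the lower ones, with -0.58 ± 0.0998 (SE, adjusted p = 0.000213); parental mice had from 44.8 to 97.0 CPM and PS19 mice from 33.5 to 46.3 CPM, which overlap narrowly. Apln, the peptide ligand of the apelin receptor of sprouting vessels, had -0.38 ± 0.106 and the BMP receptor gene Bmpr2 -0.19 ± 0.0479. Higher were Tgfbr2, a TGF-beta receptor that microglia also make, with 0.80 ± 0.0869, Bmp4 with 0.89 ± 0.148 and Pdgfd with 0.65 ± 0.0993 (SE). No PS19 mouse overlapped a parental mouse for Tgfbr2. Of 20 genes of Wnt signaling in the barrier, 3 were higher and 1 lower, with a median of -0.01. The co-receptor gene Lrp5 had 0.50 ± 0.0963, the receptor gene Fzd4 0.36 ± 0.0992, the feedback inhibitor gene Apcdd1 0.37 ± 0.0864 and the transcription factor gene Sox18 -0.49 ± 0.124.

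Of 18 other barrier transport genes, 6 were higher and 1 lower, with a median log2 fold change of 0.13, and 4 passed with the block for the mouse number. Slco2b1, which microglia also make, had 0.69 ± 0.0746, the drug pump gene Abcc4 0.48 ± 0.112 and Slc3a2, a subunit of the transporter of large amino acids, 0.29 ± 0.0511 (SE). Of 16 other junction and caveola genes, 4 were higher and 0 lower, with a median of 0.10; 5 were called by DESeq2 and 3 by limma. The caveola genes Cavin1 and Cavin2 had 0.44 ± 0.0566 and 0.26 ± 0.0820 (SE). The count of 4 fell to 2 without E2H mouse 1 and 2 without E4H mouse 2, and to 2 with the block. Of 18 genes of endothelial activation, 11 were higher and 1 lower, with a median of 0.74. The TNF receptor gene Tnfrsf1a had 0.97 ± 0.102 and the leukocyte adhesion gene Vcam1 0.62 ± 0.0988. Ackr1, a chemokine receptor of venules, had -0.31 ± 0.0783. Astrocytes and microglia also make some of these.

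Of 24 other mural genes, 3 were higher and 1 lower, where 22.3% of all genes passed, with a median log2 fold change of 0.09, and 2 passed with the block for the mouse number. The contractile genes Myl9 and Tpm2 had 0.38 ± 0.0970 and 0.25 ± 0.0841, Ifitm1 0.59 ± 0.169 and Tpm1 -0.15 ± 0.0441 (SE). Of 18 basement membrane genes, 7 were higher and 2 lower, with a median of 0.16. The laminin gene Lamb2 had 0.62 ± 0.0851, the matrix protein gene Sparc 0.73 ± 0.109 and the integrin gene Itgb1 0.30 ± 0.0470. The proteoglycan gene Agrn had -0.34 ± 0.0764 and the collagen gene Col4a2 -0.40 ± 0.133. Of 12 interferon response genes, 11 were higher and 0 lower, with a median of 1.18, 11 were called by DESeq2 and 11 by limma; 9 passed in the E2H line, where 0.752% of all genes did, 0 in the E3H line, where 5.37% did and 5 of the 12 had an unadjusted p under 0.05, and 9 in the E4H line, where 15.6% did. Ifitm3 had 1.04 ± 0.124, Ifit3 1.21 ± 0.180 and Ifit1 1.44 ± 0.214. In the interaction test edgeR called 0 of these 12 genes, with 5 at an unadjusted p under 0.05.

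Markers of other cell types moved in the same comparison, where 22.3% of all genes passed. Of 8 astrocyte markers, 8 were higher, and their summed level was 658, 707 and 660.0 in E2H, 595, 636 and 626 in E3H and 601, 565 and 626 FPKM in E4H, against 1023, 942, 1113 and 1026 in PS/E2H, 864, 1162, 1104 and 1194 in PS/E3H and 1332, 1197, 1239.5 and 1147 FPKM in PS/E4H in PS19 mice. All PS19 mice were above all parental mice; the most abundant gene was Aldoc. Of 8 microglia markers, 7 were higher and 0 lower. Their sum was 115, 135 and 114 in E2H, 123, 120.2 and 129 in E3H and 113, 114 and 117 FPKM in E4H in parental and 204, 199.6, 228 and 132 in PS/E2H, 165, 220.0, 234 and 245 in PS/E3H and 285, 227, 222 and 280.5 FPKM in PS/E4H in PS19 mice. PS/E2H mouse 4, which stood apart on vessel genes, had the lowest microglia sum of the PS19 mice, just under the highest parental mouse. Of 7 oligodendrocyte markers, 5 were higher and 0 lower; the sums were 998, 965 and 960.4 in E2H, 737, 854 and 765 in E3H and 892, 805 and 946 FPKM in E4H and in PS19 mice 1064, 1063, 1011 and 859 in PS/E2H, 951, 1062, 1058 and 1026 in PS/E3H and 1339.6, 1361, 1076 and 1134 FPKM in PS/E4H, with Mbp most abundant. The groups overlapped for these only in the E2H line. Of 8 neuron markers, 1 was higher and 4 lower; the sums were 1085, 1114 and 1085 in E2H, 1102, 1139.5 and 1155 in E3H and 1063, 1139 and 1112 FPKM in E4H and in PS19 mice 1001, 1026, 997 and 1052 in PS/E2H, 1118, 982, 999 and 989 in PS/E3H and 962, 936, 987 and 1067 FPKM in PS/E4H, with Snap25 most abundant.

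Of 4 markers of oligodendrocyte precursors, 2 were higher and 0 lower, with sums from 30.2 to 41.9 FPKM over all mice and Cspg5 most abundant. Of 6 markers of perivascular macrophages, 5 were higher and 0 lower. Their sums were 1.98, 2.86 and 2.62 in E2H, 2.11, 2.75 and 2.75 in E3H and 2.21, 2.23 and 1.26 FPKM in E4H in parental and 5.64, 4.09, 4.95 and 4.48 in PS/E2H, 3.42, 5.21, 6.46 and 6.89 in PS/E3H and 5.50, 5.12, 4.28 and 3.56 FPKM in PS/E4H in PS19 mice, with Pf4 most abundant, and all PS19 mice were above all parental mice. Of 8 markers of vascular fibroblasts, 6 were higher and 0 lower. Their sums were 14.6, 26.5 and 26.0 in E2H, 35.3, 34.7 and 33.4 in E3H and 30.8, 23.7 and 24.0 FPKM in E4H and in PS19 mice 40.0, 30.4, 47.3 and 38.1 in PS/E2H, 35.3, 49.0, 41.3 and 54.9 in PS/E3H and 41.2, 44.8, 34.6 and 42.2 FPKM in PS/E4H, with Igf2 most abundant. E2H mouse 1 had the lowest of all. Of 8 choroid plexus markers, 3 were higher and 0 lower, or 5 without PS/E3H mouse 1 and 5 without PS/E4H mouse 1; the sums ran from 294 to 888 FPKM, with Ttr most abundant.

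Of 5 blood markers, edgeR called 0, with 5 at an unadjusted p under 0.05; DESeq2 called 0 and limma 2. Without PS/E3H mouse 4 edgeR called 5, and with the block for the mouse number on all mice it also called 5. The median log2 fold change was -0.98. Their sums were 950.5, 381 and 239 in E2H, 413, 294 and 252 in E3H and 242, 235 and 285 FPKM in E4H in parental and 285, 290.5, 50.3 and 34.2 in PS/E2H, 103, 70.2, 118 and 464 in PS/E3H and 298, 153, 65.9 and 297 FPKM in PS/E4H in PS19 mice, with Hbb-bs most abundant, and the groups overlapped. Of 5 neutrophil markers, 4 could be tested and 1 passed, Ngp, while DESeq2 called 2 and limma 0; edgeR called 3 without E2H mouse 1 and 2 without E2H mouse 3, and 0 without E3H mouse 1 or 3, any E4H mouse, PS/E3H mouse 4 or PS/E4H mouse 1. Their sums were 11.95, 0.636 and 1.30 in E2H, 0.702, 1.88 and 1.39 in E3H and 0.331, 0.412 and 0.584 FPKM in E4H and in PS19 mice 2.23, 1.26, 3.80 and 7.80 in PS/E2H, 0.256, 2.90, 3.39 and 43.7 in PS/E3H and 24.9, 3.58, 1.86 and 1.32 FPKM in PS/E4H, with S100a9 most abundant, and S100a8, Ngp, Ly6g and Camp were at 0 in some mice. No marker of any list was at 0 in all mice. The part of these cell types in the changes of the vessel genes was not tested.

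**Figure D5:**
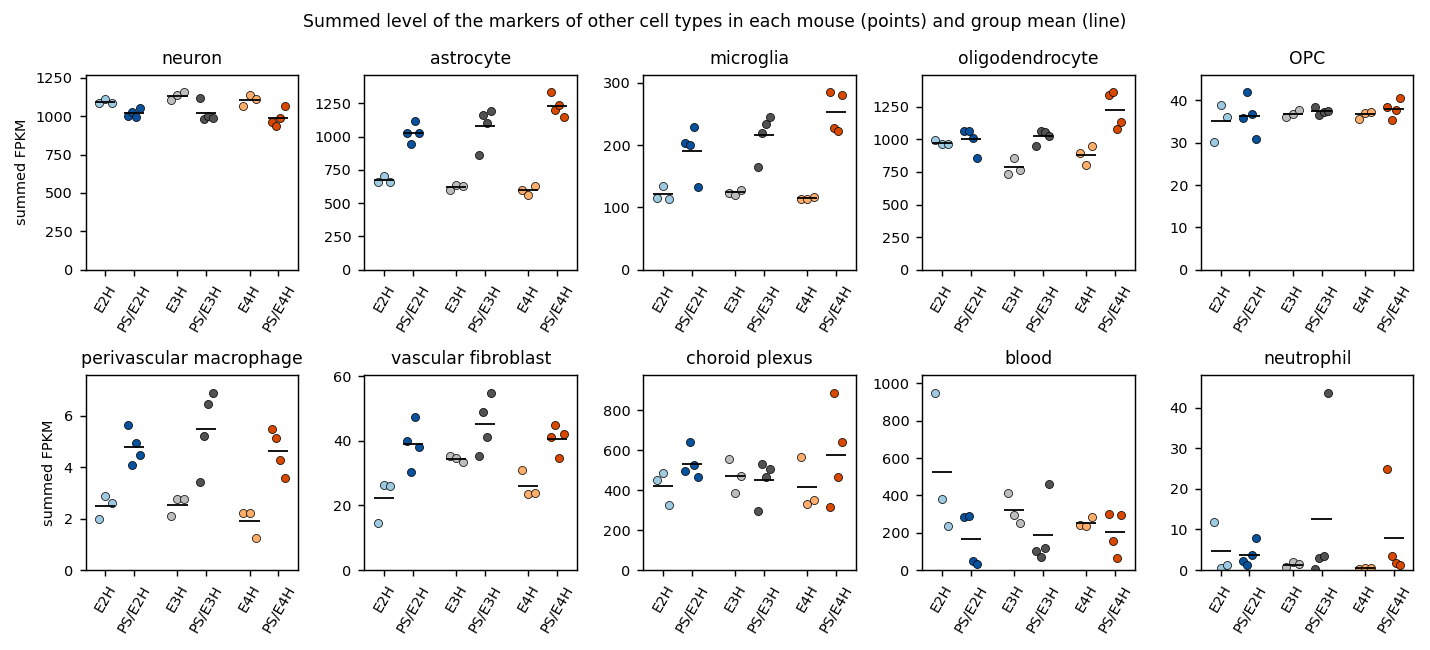
Summed level in FPKM of the markers of each other cell type, 1 point per mouse and a line at each group mean. The astrocyte sums rise from between 565 and 707 FPKM in parental mice to between 864 and 1332 FPKM in PS19 mice, while the blood sums spread from 34.2 to 950.5 FPKM and are highest in E2H mouse 1.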

How the data were processed

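The counts are whole numbers per gene and were used as the authors deposited them, without normalization; how they were derived from the assembled transcripts is not stated. The deposited FPKM values were made by the authors with StringTie and are scaled for transcript length and library size. The authors trimmed stranded poly(A) paired reads with Cutadapt and aligned them with HISAT2 to GRCm38; their tool versions are not stated. Mice were placed in groups by their labels. Genes were tested in R 4.3.3 with edgeR 4.0.16: TMM factors, filterByExpr with a minimum count of 10 and a minimum total of 15, the quasi-likelihood F test, and p-values adjusted by Benjamini-Hochberg over all genes that passed the filter. A gene passed at an adjusted p under 0.05. Alternatives used DESeq2 1.42.0, and limma 3.58.1 on log2(FPKM + 1). Tables and figures were made with Python 3.11.15, pandas 2.3.3, NumPy 2.4.6 and matplotlib 3.10.9. All 31 vessel genes are named, and from each list of related genes up to 3 of those with the smallest p in each direction that passed over the 3 lines. The vessel genes and the lists were chosen with earlier results of these data known.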

Additional observations from a re-analysis of the deposited data

Results flagged for a closer look

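Each of the 31 genes was looked at in each of the 3 PS19 groups of 4 mice, 93 sets of 4 values. In 9 of these sets 1 value lay far from the other 3, by the gap to the nearest value over the whole range of the set, and these 9 values came from 4 mice. Chance alone gives about 1 in 20 sets, or 4.65 of 93 if the sets were independent, which sets that share mice are not. Groups of 3 mice were not looked at. PS/E2H mouse 4 had 171 CPM of Slc2a1, where the others had 118 to 119.7 CPM. It had 69.6 CPM of Mfsd2a against 19.8 to 25.8 CPM, 4.15 CPM of Tek against 12.2 to 13.6 CPM, and 79.1 CPM of Vtn against 97.8 to 99.5 CPM. PS/E3H mouse 4 had 14.5 CPM of Cdh5 against 9.97 to 10.5 CPM. It had 18.7 CPM of Esam against 11.4 to 12.4 CPM, and 37.2 CPM of Vwf against 19.4 to 22.1 CPM. PS/E4H mouse 2 had 5.99 CPM of Abcc9 against 7.06 to 7.27 CPM. PS/E4H mouse 4 had 115.04 CPM of Vtn against 97.6 to 99.1 CPM. For Slc2a1, Mfsd2a, Tek and Vtn the text also gives the fold change over the 3 lines without PS/E2H mouse 4 and E2H mouse 1.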

How the results depend on the processing

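The results above rest on edgeR with TMM factors and a filter on low counts. Over the 3 lines, 7 endothelial and 3 mural genes passed with RLE size factors, with no filter, by DESeq2 and by limma on log2(FPKM + 1). By DESeq2 more genes passed than by edgeR, as also over all genes (690 against 155 in the E2H line, 4557 against 3252 in the E4H line, 1542 against 324 over the APOE lines): 2 endothelial and 3 mural in PS/E2H against E2H, 6 endothelial in PS/E3H against E3H, 8 endothelial in PS/E4H against E4H, 8 genes in E2H against E3H, 5 in E4H against E3H, 3 in E4H against E2H, 1 in PS/E2H against PS/E3H, 1 in PS/E4H against PS/E2H and 5 over the APOE lines. With RLE, 1 gene passed in E2H against E3H. With no filter, and likewise with limma, 1 mural gene passed in PS/E4H against E4H, 0 genes in E4H against E3H and 1 over the APOE lines. With a fold change of at least 2, 0 endothelial and 0 mural genes passed over the 3 lines and in each line, and 0 in E4H against E3H, as the added limit must remove calls. With mouse 1 of E2H and mouse 4 of PS/E2H both left out, chosen after seeing the data, 0 genes passed over the APOE lines. The labels number the mice of each group, and a check for pairing found correlations of same-numbered mice from -0.147 to 0.332 between PS19 and parental groups, of either sign, so the mice were not taken as pairs; with the replicate block, 4 endothelial genes and 1 mural gene passed in PS/E4H against E4H, 1 mural gene over the 3 lines and 1 gene over the APOE lines, and over the 3 lines 4 other barrier transport genes, 2 other junction and caveola genes, 2 other mural genes, 5 blood markers and 0 neutrophil markers. Leaving out each replicate in turn, the number of endothelial genes in PS/E3H against E3H ran from 0 to 3 and of mural genes from 0 to 1, that of mural genes in PS/E4H against E4H from 1 to 2, of genes in E2H against E3H from 0 to 1, in E4H against E3H from 0 to 1, and over the APOE lines from 1 to 4. The direction turned, for genes that did not pass, in the log2 fold change over the 3 lines: Cldn5 -0.00508 by limma, -0.0364 without both mice and -0.0498 to 0.0736 leaving out each replicate; Tjp1 -0.0108 by limma and -0.0549 to 0.0405; Tie1 0.0185 with the replicate block and -0.0979 to 0.0176; Pdgfrb -0.00649 by limma, -0.0127 with the block, -0.0355 without both mice and -0.0417 to 0.0513; Rgs5 -0.000743 with RLE, -0.000834 by DESeq2, -0.00698 by limma, -0.0167 with the block, -0.0130 without both mice and -0.0221 to 0.0349; Higd1b 0.0477 without both mice and -0.178 to 0.0212; and, leaving out each replicate alone, Esam -0.0856 to 0.00477, Slco1c1 -0.0294 to 0.0268 and Itm2a -0.0814 to 0.0360. The cause was not tested. Of the other values, list counts included, 1348 stayed the same in direction and call or close in count, 62 lost a call or fell in count and 11 gained a call or rose in count.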
